A study of Mus musculus with 32 samples.

Results

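Pax5, Pou2af1, Cd79a, Cd79b and Rag2 are genes that act in B-cell development. They were taken by symbol from a set of 9 B-cell specification genes, and these 5 of the 9 are described here, among 27728 genes with counts. Ebf1, Vpreb1, Igll1 and Rag1 were not analysed here. The set was chosen by the measured levels of Pax5 and Pou2af1, which were near 0 in 1 of the 9 groups, the fetal homozygous deletion (means of 0.0465 and 0.00588 CPM, counts per 1000000 counts). The next lowest of the genes there were Rag2, at 0.513 CPM, and Cd79a, at 0.527 CPM. Values of that group against its fetal comparison groups are therefore given as a description, with no test of the chosen genes.

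RNA was sequenced from mouse hematopoietic progenitors sorted as Lin- cKit+ Sca1- cells, in a study of how much of the splicing factor gene U2af1 blood cells need. There were 32 libraries with 26.6 to 71.3 M counts each (M is 1000000 counts), 15 of them from E14.5 fetal liver and the other 17 from the marrow of adult mice. Levels of U2af1 itself were not analysed here, and the genotypes are as labelled. Where labels did not say that libraries of a group came from separate animals, p-values measure only the spread between these libraries.

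The fetal flox control (n = 3) was U2af1(flox/flox) without Cre. The heterozygous deletion (n = 3) was Vav1-Cre with U2af1(wt/flox), and the homozygous deletion (n = 3) was Vav1-Cre with U2af1(flox/flox). Vav1-Cre is active through the blood lineage, so recombination was not limited to the sorted cells. Vav1-Cre alone (n = 2) and Vav1-Cre with U2af1(wt/S34F) (n = 4) completed the fetal groups, which were all untreated. S34F is an amino acid substitution in the splicing factor. The labels put the S34F libraries and Vav1-Cre replicate 3 in batch B and the other fetal libraries in batch A. The adult rescue mice carried Mx1-Cre, rTA, the wild-type transgene tgU2AF1(WT) and U2af1(flox/S34F). They received pIpC, which induces Mx1-Cre, and doxycycline chow. The chow held 1250 ppm for 4 libraries, 2500 ppm for 6 and 10000 ppm for 4. The adult control (n = 3) had Mx1-Cre, rTA, tgU2AF1(WT) and U2af1(wt/wt) and was untreated, so genotype, pIpC and doxycycline differed from the rescue groups together.

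B-cell precursors arise from lymphoid progenitors that respond to the cytokine receptors Flt3 and Il7r. The transcription factors Tcf3 (E2A) and Ebf1 start the B-lineage program, and Pax5 then commits cells to it and holds other fates shut. Pou2af1 encodes OBF-1, a coactivator that binds DNA through the octamer factors Pou2f1 and Pou2f2. Cd79a and Cd79b encode the signalling pair of the B-cell and pre-B-cell receptors. Rag2 encodes a subunit of the recombinase that joins V, D and J segments, and it also acts in T-cell precursors. Lin- cKit+ Sca1- cells are known mostly as committed myeloid and erythroid progenitors. The share of cells that express these genes was not measured. In bulk RNA, fewer B-lineage cells and less of the transcript per cell cannot be told apart.

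The promoters are shown because the genes with the widest range, Pax5, Pou2af1 and Cd79a, moved together. The 250 bases before the RefSeq start site (GRCm38.p6) were matched for 4 of the 5 genes. Each was read 5′ to 3′ on the gene's strand, and capitals mark matches to the general E-box CANNTG, the motif family of Tcf3. The windows are chr4:44710695-44710944 (minus strand) for Pax5, chr9:51213440-51213689 (plus strand) for Pou2af1, and chr7:24897247-24897380 (plus strand) for Cd79a. The Cd79a window stops short, at 134 bases, where the GENCODE M21 gene begins.
Pax5: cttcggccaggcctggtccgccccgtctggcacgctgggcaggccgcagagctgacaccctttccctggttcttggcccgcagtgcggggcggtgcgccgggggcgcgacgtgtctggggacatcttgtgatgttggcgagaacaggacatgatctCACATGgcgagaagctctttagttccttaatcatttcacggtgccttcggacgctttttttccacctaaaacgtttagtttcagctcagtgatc
Pou2af1: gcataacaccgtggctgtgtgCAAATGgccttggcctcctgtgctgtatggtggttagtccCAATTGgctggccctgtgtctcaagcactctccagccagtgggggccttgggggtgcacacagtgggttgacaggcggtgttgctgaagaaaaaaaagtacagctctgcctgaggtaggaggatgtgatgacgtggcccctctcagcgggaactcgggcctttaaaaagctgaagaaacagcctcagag
Cd79a: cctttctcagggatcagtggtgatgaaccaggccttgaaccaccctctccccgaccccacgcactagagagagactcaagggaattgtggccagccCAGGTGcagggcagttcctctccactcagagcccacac

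Each motif was searched on both strands as an exact string, with N as any base, so sites that differ from the string were not found. CANNTG was in all 4 promoters with 250 bases before the start, and 66.2% of 32851 RefSeq promoters of that length held it. Cd79a had a further match in its bases that are not printed. The subset CAGGTG, which CANNTG also counts, was in the Cd79a promoter alone among the 4 and in 17.2% of all promoters. The palindromic Ebf1 motif (0.779% of all promoters), its core CCCNNGGG (11.8%), which it contains, the octamer ATTTGCAT (1.6%) and the Ikaros-type motif TGGGAA (21.6%) were in none of the 4. The ETS-type motif GAGGAAGT (2.44%) and TATAAA (12.4%) were in none of them either. The promoters of Pax5 and Cd79a had 58.8% G and C, that of Pou2af1 56.0% and that of Rag2 41.2%. CpG dinucleotides numbered 19 for Pax5, 5 for Pou2af1, 6 for Cd79a and 3 for Rag2. These numbers and the shares of G and C cover all 250 bases, for Cd79a also those not printed.

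Levels are in CPM after TMM scaling of the 32 libraries together. Groups were compared by the quasi-likelihood test of edgeR. A gene is named as called where its p, adjusted by Benjamini-Hochberg over all tested genes, was under 0.05. One library stood apart. Replicate 2 at 10000 ppm had 429 CPM of Hbb-bt, a beta-globin gene, and 120 CPM of Alas2, the erythroid enzyme of heme synthesis. The other 3 libraries of its group had 7.76 to 9.79 CPM of Hbb-bt and 1.25 to 3.21 CPM of Alas2. It also had the highest levels in its group of Cd3e, a T-cell receptor subunit (2.27 CPM), and of the mature B-cell genes Ms4a1 (1.44 CPM) and Fcmr (2.94 CPM). Results at 10000 ppm and over dose are given with and without it.

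Pax5 (ENSMUSG00000014030, protein-coding, GRCm38 chromosome 4, 44524757 to 44710487, minus strand) had 33.5, 11.2 and 13.8 CPM in flox control replicates 3, 4 and 5. The heterozygous libraries had 24.5, 22.5 and 17.3 CPM, and Vav1-Cre replicates 2 and 3 had 17.5 and 24.6 CPM. In the homozygous deletion it had 0.0430, 0.0353 and 0.0611 CPM, which was 2 counts in each of the 3 libraries. No homozygous library came near the other fetal groups, and the flox control alone spanned the whole range of the heterozygous and Vav1-Cre groups. Across the 4 S34F libraries Pax5 had 5.44, 6.90, 6.24 and 6.34 CPM, a narrow range under every flox control, heterozygous and Vav1-Cre library. Untreated adult replicates 1, 2 and 3 had 0.646, 0.428 and 0.0199 CPM. The adult rescue groups were higher, at 6.16, 5.12, 6.52 and 7.10 CPM at 1250 ppm and 17.1, 15.8, 2.38 and 4.26 CPM at 10000 ppm. At 2500 ppm the lowest, median and highest libraries had 1.40, 5.81 and 11.5 CPM. Every rescue library was above every untreated one, and the 10000 ppm group split into a high pair, replicates 1 and 2, and a low pair.

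Pou2af1 (ENSMUSG00000032053, protein-coding) lies on the plus strand of chromosome 9, from 51213708 to 51240080. It had 11.8, 3.64 and 3.75 CPM in the flox control and 7.26, 7.04 and 4.79 CPM in the heterozygous libraries. Its values were 3.76 and 7.38 CPM with Vav1-Cre alone. The homozygous libraries had 0, 0.0176 and 0 CPM, a single count in all 3 together. Flox control replicate 3 was again the high library of its group, and the homozygous deletion again lay apart. The S34F libraries had 1.47, 2.26, 1.75 and 1.71 CPM. The untreated adults had 0.417, 0.250 and 0.0397 CPM. The rescue libraries had 2.86, 2.85, 3.46 and 2.49 CPM at 1250 ppm, 8.13, 8.09, 1.29 and 2.19 CPM at 10000 ppm, and 0.677 to 5.78 CPM with a median of 2.97 CPM at 2500 ppm. As for Pax5, the rescue and untreated groups did not overlap, and replicates 1 and 2 at 10000 ppm were the high ones.

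Cd79a (ENSMUSG00000003379, protein-coding, chromosome 7, 24897381 to 24902197, plus strand) had 17.5, 5.48 and 6.77 CPM in the flox control and 11.8, 10.5 and 5.66 CPM in the heterozygous libraries. Its values were 7.71 and 9.90 CPM with Vav1-Cre alone. In the homozygous deletion it had 0.667, 0.212 and 0.703 CPM, from 31, 12 and 23 counts. Cd79a was thus low but measurable where Pax5 and Pou2af1 were near 0. The S34F libraries had 1.41, 3.16, 2.25 and 2.55 CPM. The untreated adults had 0.542, 0.321 and 0.238 CPM, which overlapped the fetal homozygous deletion. The rescue libraries had 2.81, 3.84, 4.65 and 6.66 CPM at 1250 ppm, 13.3, 16.7, 1.80 and 3.07 CPM at 10000 ppm, and 1.31 to 8.39 CPM at 2500 ppm, all above the untreated group.

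Cd79b (ENSMUSG00000040592, protein-coding, chromosome 11, 106311341 to 106314762, minus strand), the partner of Cd79a, had far the narrower range. It had 60.5, 39.6 and 43.4 CPM in the flox control, 50.7, 47.2 and 43.0 CPM in the heterozygous deletion, and 41.0 and 42.6 CPM with Vav1-Cre alone. The homozygous deletion had 25.0, 25.9 and 23.2 CPM and S34F had 33.3, 32.8, 33.7 and 35.1 CPM. Both groups lay under the other fetal libraries without overlap, but neither approached 0. The untreated adults had 22.9, 24.5 and 18.0 CPM. The 14 rescue libraries ran from 26.1 to 36.9 CPM, just above the untreated group.

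Rag2 (ENSMUSG00000032864, protein-coding, chromosome 2, 101624718 to 101632529, plus strand) had 7.05, 3.71 and 3.33 CPM in the flox control and 5.48, 4.79 and 5.55 CPM in the heterozygous libraries. Its values were 4.64 and 7.93 CPM with Vav1-Cre alone and 4.33, 3.65, 4.05 and 4.52 CPM with S34F. The homozygous deletion had 0.688, 0.423 and 0.428 CPM. Rag2 was therefore low in the homozygous deletion like the others, but its S34F libraries overlapped the flox control. In adults it had 1.63, 1.18 and 0.258 CPM in the untreated group and 0.930 to 2.38 CPM over the 14 rescue libraries, of which 6 were above all untreated ones.

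**Figure D1:**
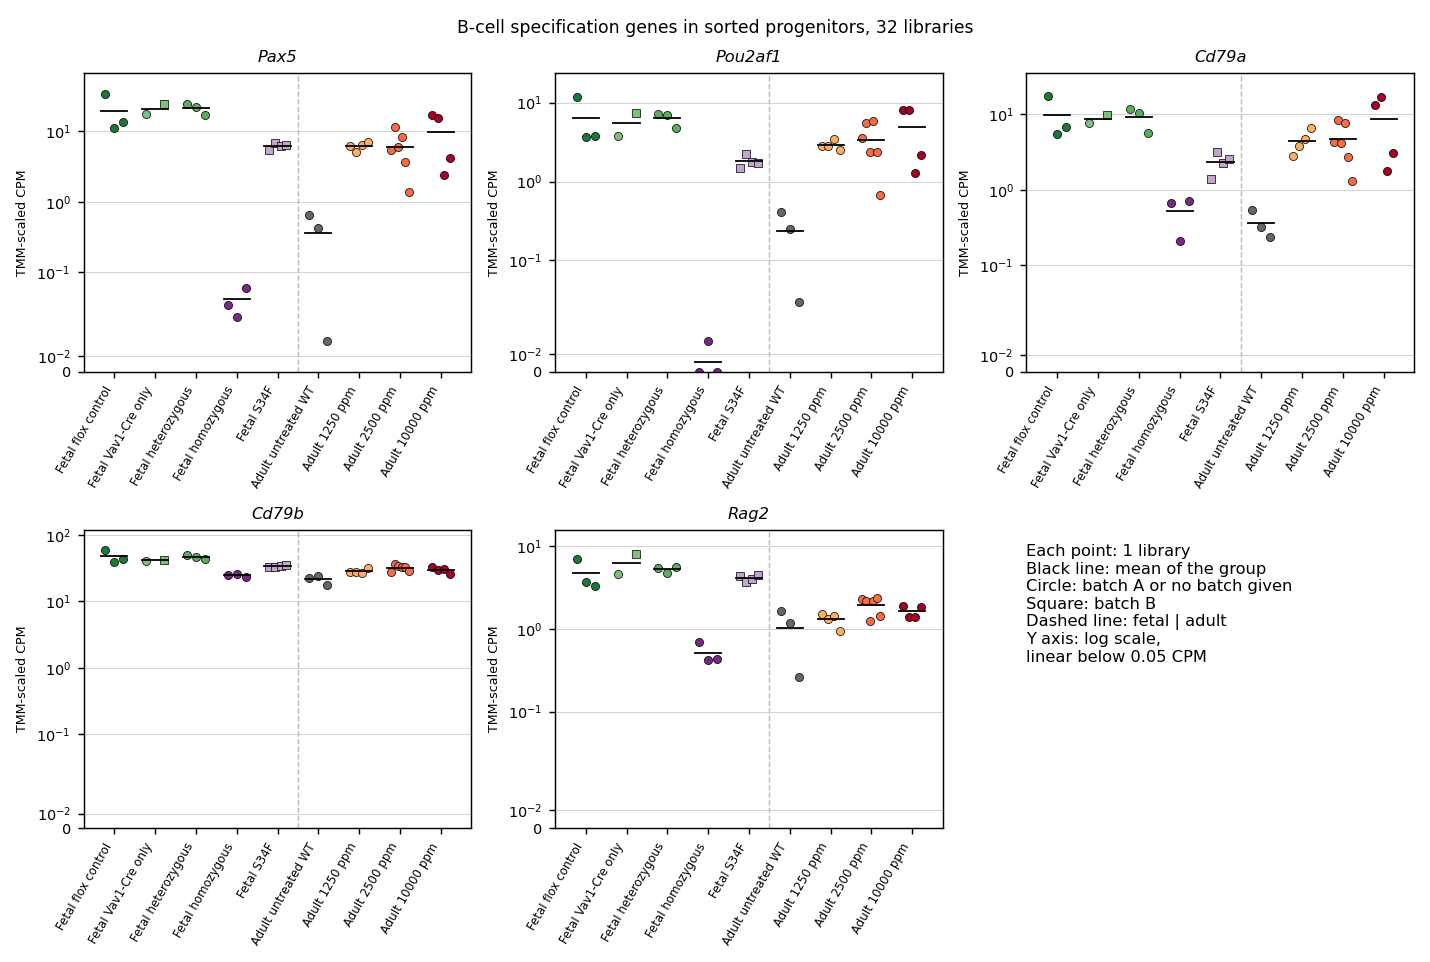
Level of each gene in the 32 libraries, in TMM-scaled CPM on a log axis that is linear below 0.05 CPM, with 1 point per library and a line at each group mean. Pax5 and Pou2af1 sit near 0 in the 3 homozygous libraries, Cd79b stays between 18.0 and 60.5 CPM in all 32, and the dosed adult libraries lie above the untreated ones for all genes but Rag2.

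Ordered by group mean, the heterozygous, Vav1-Cre and flox control groups held the 3 highest places for Pax5, Pou2af1, Cd79a and Cd79b, and for Rag2 as well. Their libraries overlapped for each of the 5 genes, except that the 2 Vav1-Cre libraries lay under the heterozygous ones for Cd79b. The lowest group was the homozygous deletion for Pax5, Pou2af1 and Rag2 and the untreated adult group for Cd79a and Cd79b. Libraries of these lowest groups overlapped for Pax5, Cd79a, Cd79b and Rag2, but not for Pou2af1. Between neighbours in the middle of the order, libraries did not overlap between 2500 ppm and untreated for Pax5, or between 1250 ppm and S34F and between S34F and untreated for Pou2af1. S34F and the homozygous deletion for Cd79a, Vav1-Cre and S34F and also 1250 ppm and the homozygous deletion for Cd79b, and S34F and 2500 ppm for Rag2 were apart as well. All other neighbours overlapped.

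Some counts may include other transcripts, because the use of strand in counting was not given in the sources used here. On the strand of Pax5, Mir5120 lies within it, and Gm12462, 4930517J16Rik and 5730488B01Rik overlap it on the opposite strand. Pou2af1 overlaps Gm47828 on its own strand, and Rag2 overlaps B230118H07Rik on the other. B230118H07Rik had 15.7 to 19.3 CPM in the flox control and 20.8 to 22.6 CPM in the homozygous deletion, so it did not fall where Rag2 was low. Cd79a and Cd79b overlap no annotated gene.

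Setting the homozygous deletion beside the flox control addresses the loss of both U2af1 alleles in fetal progenitors. All 5 genes were lower, with no overlap between the groups. Over all 12678 genes tested, 22.4% were called lower (41% in either direction) and 25.2% were lower without overlap. Nothing is read from the count of 5, since this contrast chose the genes. From 6 counts in all, Pax5 was 442-fold lower (203 to 1203 with the 95% exact Poisson interval of those counts). From 1 count, Pou2af1 was 868-fold lower (156 to 34283). Both genes lay there under 0.0697 CPM, the mean level of 3 counts per library. These intervals cover counting error in the homozygous libraries only. The fitted log2 fold change of Pax5 was -8.73, and -8.08 without flox control replicate 3. That of Pou2af1 was -9.40, -8.60 without flox control replicate 3, and -11.46 without homozygous replicate 3, which held its only count. Cd79a was 19.8-fold lower (log2 fold change -4.31 ± 0.57, SE), Rag2 was 9.22-fold lower (-3.21 ± 0.33) and Cd79b was 1.96-fold lower (-0.97 ± 0.13). The median log2 fold change of the 5 was -4.31, and that of all tested genes was -0.018. Without flox control replicate 3 the median, which was the value of Cd79a, was -3.62.

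Against the heterozygous deletion, which also carries Vav1-Cre, the picture was close. Pax5 was 485-fold lower (223 to 1323) and Pou2af1 865-fold lower (155 to 34170) by the same counting intervals. The log2 fold change was -4.22 ± 0.57 (SE) for Cd79a, -3.38 ± 0.33 for Rag2 and -0.95 ± 0.13 for Cd79b. Of all genes, 22.4% were called lower (42.3% in either direction). Both comparisons use the same homozygous libraries.

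The other genes of the pathway came from fixed lists, which also had earlier results in view. Over all genes tested between the homozygous and flox control libraries, 22.4% fell and 18.5% rose, against which the counts of each list are read. Of 22 B-lineage regulators, 11 fell and 3 rose. Pou2f2, the octamer factor that Pou2af1 binds, fell from 80.9 ± 4.88 to 15.8 ± 3.21 CPM (SD, n = 3). Irf8, Bach2 and Id3 fell with log2 fold changes of -2.06, -2.19 and -3.33. Ikzf3 (Aiolos), a zinc-finger factor of lymphoid cells, rose from 8.63 ± 2.70 to 28.8 ± 5.64 CPM (SD, n = 3), against the direction of the B-cell genes. Its libraries had 11.7, 7.23 and 6.93 CPM in the flox control and 22.5, 33.5 and 30.3 CPM in the homozygous deletion, so they did not overlap. Ikzf3, with Ets1 and Spi1, made up the 3 that rose, and these 3 are named after their values were seen.

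Of 9 receptors and their signalling genes, 5 fell and 2 rose, Cxcr4 and Jak1. Flt3, the receptor of lymphoid and multipotent progenitors, had 95.1, 58.1 and 51.4 CPM in the flox control and 19.1, 12.9 and 8.53 CPM in the homozygous deletion. Il7r, the interleukin-7 receptor chain on which B-cell precursors depend, had 15.2, 6.75 and 7.36 CPM against 2.17, 1.98 and 2.90 CPM. Of 16 pre-B receptor and Pax5 or Ebf1 target genes tested, 7 fell and 1 rose, Pik3ap1. Cd22, an inhibitory coreceptor of B cells, had 3.67, 1.65 and 2.02 CPM in the flox control and 0.129, 0.0353 and 0 CPM in the homozygous deletion. Vpreb3 fell by 6.01, Cd22 by 5.36 and Cplx2 by 2.18 on the log2 scale. Of 9 end-joining genes, which complete V(D)J recombination, 4 rose and 2 fell.

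**Figure D2:**
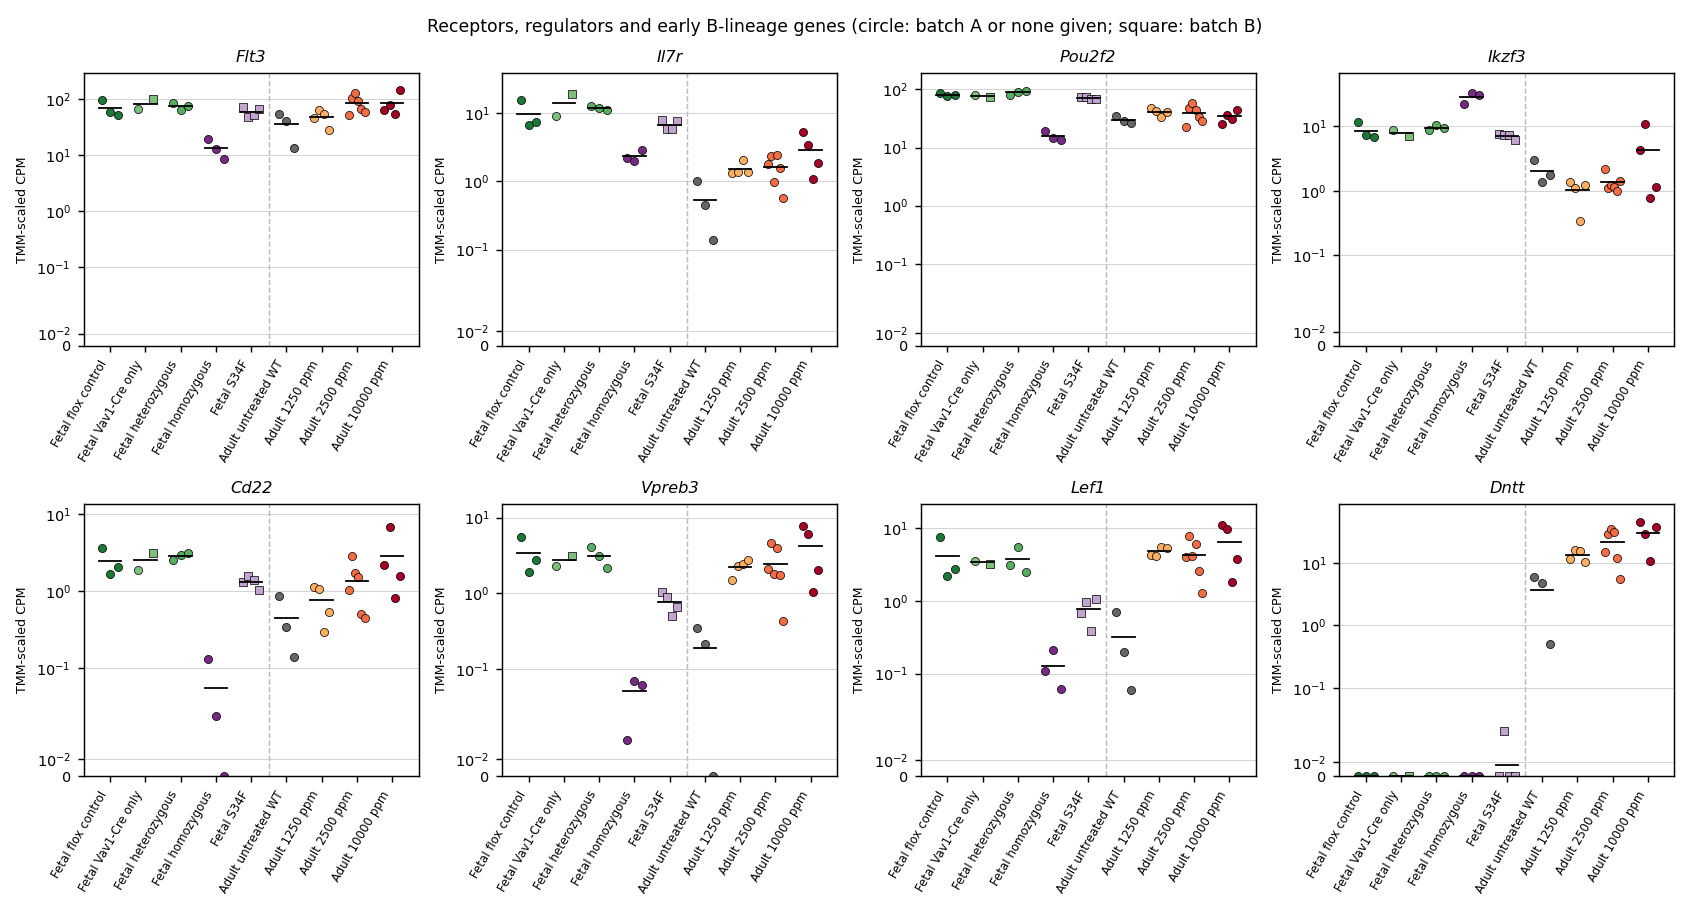
Level of 8 genes of the B-cell pathway in the 32 libraries, in TMM-scaled CPM on a log axis that is linear below 0.05 CPM, with 1 point per library and a line at each group mean. Flt3, Il7r, Pou2f2, Cd22, Vpreb3 and Lef1 are low in the homozygous deletion, Ikzf3 is high there at 22.5 to 33.5 CPM, and Dntt is at or near 0 in all fetal libraries.

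Markers of other cell types were compared in the same groups. The sort marker Kit had 484 to 569 CPM in the flox control and 234 to 321 CPM in the homozygous deletion. The 10 hepatocyte genes with counts summed to 112 to 643 CPM in the flox control, 55.7 to 131 CPM in the heterozygous and 16.9 to 40.3 CPM in the homozygous deletion. Macrophage genes (9 of 10 listed) summed to 129 to 140, 58.2 to 105 and 51.0 to 76.8 CPM in these groups. The 6 erythroid genes with counts summed to 720 to 1053, 399 to 1001 and 542 to 628 CPM. Of 12 genes of T and NK cells tested, 7 fell and 2 rose, Nkg7 and Thy1. The sum of all 16 was 74.9 to 126 CPM in the flox control and 158 to 207 CPM in the homozygous deletion, and most of it was Nkg7, a cytotoxic granule gene, with means of 64.1 and 172 CPM. Cd3e, Ncr1 and Gzma were at 0 in the homozygous deletion, but they had at most 0.0316, 0.0790 and 0.316 CPM in the flox control. Ncr1 also had no count with S34F or with Vav1-Cre alone. Tcf7 fell from a mean of 13.4 to 5.93 CPM. The 7 genes of plasmacytoid dendritic cells had sums that overlapped, at 101 to 146 and 105 to 106 CPM, although 5 of the 6 tested fell. Of the mature B-cell markers, Ms4a1, which encodes CD20, was at 0 in the homozygous deletion and at most 0.157 CPM in the other fetal libraries. The part of these differences in the results was not tested.

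Loss of 1 allele was addressed by the heterozygous deletion beside the flox control. None of the 5 genes was called, beside 0.0316% of 12678 genes (4 genes), and 8.83% had an unadjusted p under 0.05, which none of the 5 had. The log2 fold changes ± SE were 0.14 ± 0.33 for Pax5, 0.0022 ± 0.41 for Pou2af1, -0.090 ± 0.45 for Cd79a, -0.018 ± 0.13 for Cd79b and 0.18 ± 0.28 for Rag2. The smallest edgeR adjusted p of the 5 was 0.897. DESeq2 also called 0 of the 5. Flox control replicate 3 had the highest level of each of the 5 genes in its group. Without it, Pax5 was called higher in the heterozygous deletion, at a log2 fold change of 0.78 with an adjusted p of 0.0289 in edgeR. That library also had the lowest summed hepatocyte level of its group (112 CPM), whose part in the result was not tested. None of the 22 regulators, 9 receptors, 16 pre-B or target genes and 9 end-joining genes was called.

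For S34F, the only control of the same batch was 1 library of Vav1-Cre alone, which leaves no replicate check and no test. Pax5 was 3.57- to 4.53-fold lower in the 4 libraries, Pou2af1 3.27- to 5.01-fold and Cd79a 3.13- to 7.0-fold. These 3 of the 5 genes were at least 2-fold lower in every S34F library, as were 0.288% of 11823 genes. Rag2 was 1.75- to 2.18-fold lower and Cd79b 1.22- to 1.30-fold lower. With the Vav1-Cre library of batch A as the comparison, Pax5 was 2.54- to 3.22-fold lower, Cd79a 2.44- to 5.45-fold, Pou2af1 1.66- to 2.55-fold and Rag2 1.03- to 1.27-fold. Pax5 and Cd79a thus passed 2-fold against both Vav1-Cre libraries, as did 0.0592% of all genes. Pax5, Pou2af1, Cd79a and Cd79b lay under all 8 flox control, heterozygous and Vav1-Cre libraries, as did 14.9% of all genes, but 7 of those 8 were of the other batch. Some genes of the lists were also at least 2-fold lower in all 4 S34F libraries than in the batch B control. They were Lef1 and Irf4 of 22 regulators, Il7r of 9 receptor genes, and Vpreb3, Blk and Ly6d of 14 pre-B or target genes. Cox6a2 of 5 plasmacytoid dendritic cell genes was lower as well, and its part in the result was not tested. With S34F, Blk had 7 to 25 counts and Ly6d 4 to 17, so their folds are uncertain. Il7r had 5.74 to 7.77 CPM with S34F, against 19.1 CPM in the batch B control and 9.06 CPM in the batch A control.

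In adult marrow, the rescue groups were set beside the untreated animals to show how near their expression lay to that of unperturbed progenitors. The B-cell genes were higher in the rescue groups, by 12.3- to 26.7-fold for Pax5, Pou2af1 and Cd79a. At 10000 ppm these 3 of the 5 were called, beside 0.952% of 13338 genes called higher (1.27% in either direction). Their log2 fold changes ± SE were 4.74 ± 0.90, 4.36 ± 0.85 and 4.55 ± 0.83, with edgeR adjusted p of 0.0247, 0.0291 and 0.0247. Cd79b (0.44 ± 0.12, edgeR adjusted p 0.0693) and Rag2 (0.67 ± 0.42, 0.356) were not called. Over the alternatives the edgeR and DESeq2 adjusted p of Pax5 ran from 4.25e-06 to 0.195. None of the 5 was called without 10000 ppm replicate 1, without untreated replicate 2 or without untreated replicate 3. Cd79a alone was called without 10000 ppm replicate 2, and none was called when the fit held only these 2 groups. The log2 fold change of Pax5 stayed between 4.20 and 5.41 when any 1 library was left out.

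At 2500 ppm, 4 of the 5 were called higher, beside 0.345% of all genes (0.487% in either direction). The log2 fold change ± SE was 4.04 ± 0.86 for Pax5, 3.83 ± 0.81 for Pou2af1, 3.69 ± 0.78 for Cd79a and 0.56 ± 0.12 for Cd79b, with edgeR adjusted p between 0.0456 and 0.0484. Rag2, at 0.93 ± 0.39, had an edgeR adjusted p of 0.280. No gene of the 5 was called without any 1 of 2500 ppm replicates 2, 3, 4 and 5 or any 1 of the 3 untreated libraries, or with only these 2 groups in the fit. Without any 1 library the Pax5 log2 fold change ran from 3.49 to 4.70, and its adjusted p over all alternatives ran from 5.22e-05 to 0.253 in edgeR and DESeq2.

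At 1250 ppm the same 4 genes were called higher, beside 6.76% of all genes (11.4% in either direction). The log2 fold change ± SE was 4.10 ± 0.88 for Pax5, 3.63 ± 0.82 for Pou2af1 and 3.62 ± 0.80 for Cd79a, with edgeR adjusted p of 0.0142, 0.0168 and 0.0155. Cd79b, at 0.39 ± 0.12, had an edgeR adjusted p of 0.0487, and it lost its call in 10 of 12 alternatives. Rag2 was not called, at 0.36 ± 0.41. Without untreated replicate 1, or without untreated replicate 2, none of the 5 was called, and the adjusted p of Pax5 over all alternatives ran from 7.71e-05 to 0.0706 in edgeR and DESeq2.

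All 3 comparisons share the untreated libraries. Untreated replicate 3 had the lowest level of each of the 5 genes in that group, and also of Flt3 (13.5 against 54.8 and 40.2 CPM), Il7r and Dntt. Pax5, Pou2af1, Cd79a and Cd79b each had all 14 rescue libraries above all 3 untreated ones, as did 1.93% of 13338 genes. For Rag2 this held for 6 of the 14 libraries.

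Among the pathway lists, Lef1, a Wnt-pathway factor of early B and T cells, was called higher at each of the 3 doses. Over all genes, 0.952% were called higher at 10000 ppm, 0.345% at 2500 ppm and 6.76% at 1250 ppm. The list counts are read against these shares. Of 22 regulators, 4 rose at 10000 ppm (Lef1, Irf4, Spib and Bach2), 1 at 2500 ppm and 2 at 1250 ppm (Lef1 and Spib), and none fell. Of 17 pre-B or target genes, 2 rose at 10000 ppm and at 1250 ppm, namely Vpreb2 and Vpreb3, and edgeR called none at 2500 ppm, where 5 had an unadjusted p under 0.05. Without replicate 2 at 10000 ppm, none of the regulators, receptors, pre-B or target genes and mature B-cell genes was called there by edgeR, which called 33 of all genes. Vpreb2 is a near copy of Vpreb1, so its counts are uncertain. None of the 9 receptor genes and none of the 9 end-joining genes was called at any dose. Dntt, the polymerase that adds untemplated bases at V(D)J joints, had 5.90, 4.76 and 0.497 CPM untreated and 44.3, 28.7, 10.8 and 36.7 CPM at 10000 ppm, with an edgeR adjusted p of 0.0511.

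Markers of later B cells were also compared. Ms4a1 had at most 0.0356 CPM untreated and 0.117 CPM at 1250 ppm, 0.0451 to 0.366 CPM at 2500 ppm and 0.395, 1.44, 0.0727 and 0.108 CPM at 10000 ppm. The lowest library at 2500 ppm, replicate 6, and the highest untreated one, replicate 2, held only 2 counts each. No separation of the groups is read from such counts. The level of Ms4a1 stayed far under that of Cd79a. Fcmr had no count in the untreated group and was at least 14.6-fold higher at 10000 ppm, by a floor of 3 counts per library. That bound rested mostly on replicate 2. Fcmr had 0.300, 2.94, 0.0182 and 0.163 CPM in replicates 1 to 4, and replicate 3 held 1 count, under the floor. Cd37, a leukocyte gene of the same list, had means of 198 CPM untreated and 176 to 186 CPM in the rescue groups. The shares of all genes called higher were 0.952% at 10000 ppm, 0.345% at 2500 ppm and 6.76% at 1250 ppm. Of 8 mature B-cell and plasma-cell genes tested, Cd40 and Tnfrsf13c rose at 10000 ppm and none was called at 2500 or 1250 ppm. Of other lists, 5 of 8 macrophage genes rose at 1250 ppm while the summed level of the list was lower, at 153 to 246 against 353 to 451 CPM. Cd3e was at most 0.0834 CPM untreated and had 0.174, 2.27, 0 and 0.0542 CPM at 10000 ppm. Of 6 erythroid genes, Hbb-bt and Alas2 rose at 10000 ppm, and neither was called without replicate 2. Alb, Ttr, Fgb and Fga were at 0 in all adult groups. The part of the macrophage, T-cell and erythroid genes in the result was not tested.

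**Figure D3:**
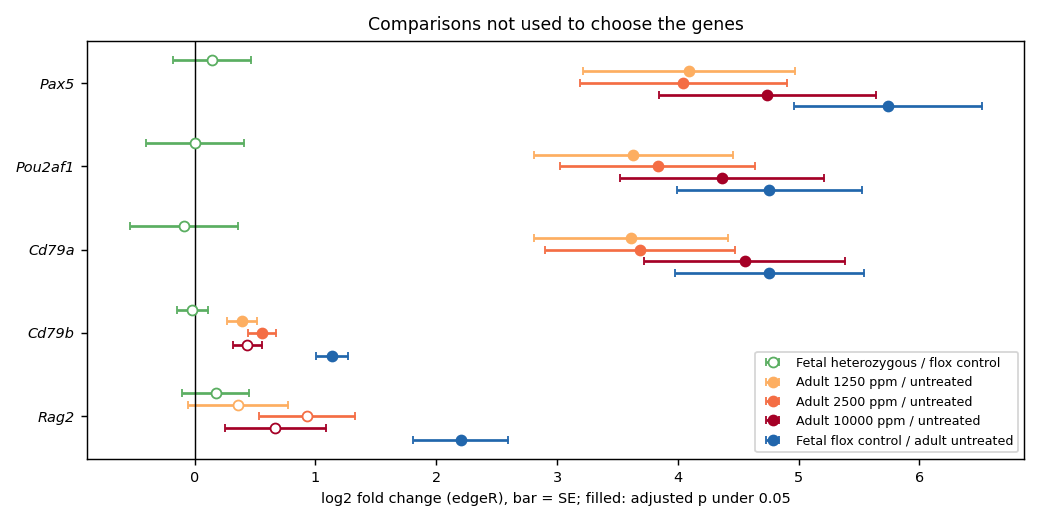
Log2 fold change with its SE for the 5 genes in the comparisons that did not choose them; filled points have an edgeR adjusted p under 0.05. Heterozygous values lie at 0 within their errors, Pax5, Pou2af1 and Cd79a lie between 3.62 and 4.74 at the 3 doses, and Cd79b and Rag2 lie closer to 0.

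The dose itself was tested as a slope on log2 ppm over the 14 rescue libraries. None of the 5 genes was called, beside 10.7% of 12849 genes, and none had an unadjusted p under 0.05, as 28.7% of all genes did. DESeq2 also called 0. The slopes per doubling of dose were 0.25 ± 0.18 (SE) for Pax5, 0.26 ± 0.19 for Pou2af1, 0.35 ± 0.19 for Cd79a, 0.011 ± 0.038 for Cd79b and 0.063 ± 0.10 for Rag2 on the log2 scale. Their edgeR adjusted p ran from 0.258 to 0.876. The spread within 10000 ppm, where Pax5 ran from 2.38 to 17.1 CPM, was wider than the gap between the dose means of 6.22, 6.06 and 9.88 CPM. Of the lists, 4 of 22 regulators rose with dose (Ikzf1, Ikzf3, Erg and Bach2), as did Jak1 and Stat5b of 9 receptor genes. Ly6d, Rasgrp3 and Blk of 17 pre-B or target genes rose, and Poll of 9 end-joining genes fell. Genes of other cell types also rose with dose, namely Hbb-bt, Alas2 and Slc4a1 of 6 erythroid genes, Cd3d and Bcl11b of 12 T-cell and NK-cell genes, Fcmr and Tnfrsf13c of 7 mature B-cell genes, Upb1 and Cox6a2 of 4 plasmacytoid dendritic cell genes, Apob of 4 hepatocyte genes, and the lineage markers Ly6g and Itgam. Bst2 of the plasmacytoid dendritic cell list fell with dose, with a slope of -0.17. Ctsg and Cebpa of the granulocyte and monocyte progenitor list also fell, with slopes of -0.24 and -0.11. The part of all these genes in the result was not tested. Without replicate 2 at 10000 ppm, edgeR called none of the B-lineage lists and, of these other genes, Apob alone, and calls over all genes went from 1376 to 87. The slope of Pax5 was then 0.13 ± 0.20 (SE), that of Pou2af1 0.13 ± 0.20 and that of Cd79a 0.15 ± 0.21. With the replicate number as a block, Apob was again the only gene of these lists called, and 33 were called over all genes.

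The fetal flox control was compared with the untreated adult group as the 2 unperturbed ends of the series. All 5 genes were called higher in the fetal progenitors, beside 26.1% of 16272 genes (49.5% in either direction). The log2 fold changes ± SE were 5.74 ± 0.78 for Pax5, 4.76 ± 0.76 for Pou2af1, 4.76 ± 0.78 for Cd79a, 2.20 ± 0.39 for Rag2 and 1.13 ± 0.13 for Cd79b. The largest edgeR adjusted p of the 5 was 4.7e-05, and all 5 were called in each of 11 alternatives. Stage, tissue, genotype and any batch cannot be told apart here. Of 22 regulators, 12 were higher and 3 lower in the fetal group, led by Id3, Foxo1, Runx1 and Tcf3, which were all higher. Il7r and Jak3 were higher and 3 receptor genes lower of 9. Of 17 pre-B or target genes, 8 were higher and 2 lower. The 2 lower ones were Cd72, a coreceptor, and Dntt, which had 0 counts in all 3 flox control libraries and was at least 66.2-fold higher in the adult group, by a floor of 3 counts per library.

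The genes whose pattern was closest to the 5 were ranked by Pearson's r with their mean standardised log2 CPM, taken over the 15 fetal and the 17 adult libraries apart. The lower of both r ranked 12173 genes. The points share the group differences above and the scaling of each library, so r is a description. Vpreb3 came first (0.979 fetal, 0.979 adult), followed by Lef1 (0.947, 0.962), Gfra1 (0.941, 0.956) and Sdc4 (0.971, 0.940). The next were Gfra2 (0.975, 0.925), Il7r (0.955, 0.922), Slamf6 (0.966, 0.899), Ppp1r16b (0.974, 0.898), Akap12 (0.956, 0.884) and Snn (0.898, 0.870). Without the homozygous and untreated libraries the r of these 10 genes was lower. Vpreb3 then had 0.924 and 0.923, while Snn had 0.115 and 0.590, so its place rested on those libraries. The other 8 had 0.854 to 0.950 fetal and 0.831 to 0.918 adult. Among the 5 themselves, each of which is part of that mean, Rag2 had 0.960 and 0.796 and fell to 0.761 and 0.456 without those libraries. The adult r of Cd79b also fell, from 0.897 to 0.601. That of Pax5, Pou2af1 and Cd79a was then 0.900, 0.935 and 0.895.

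**Figure D4:**
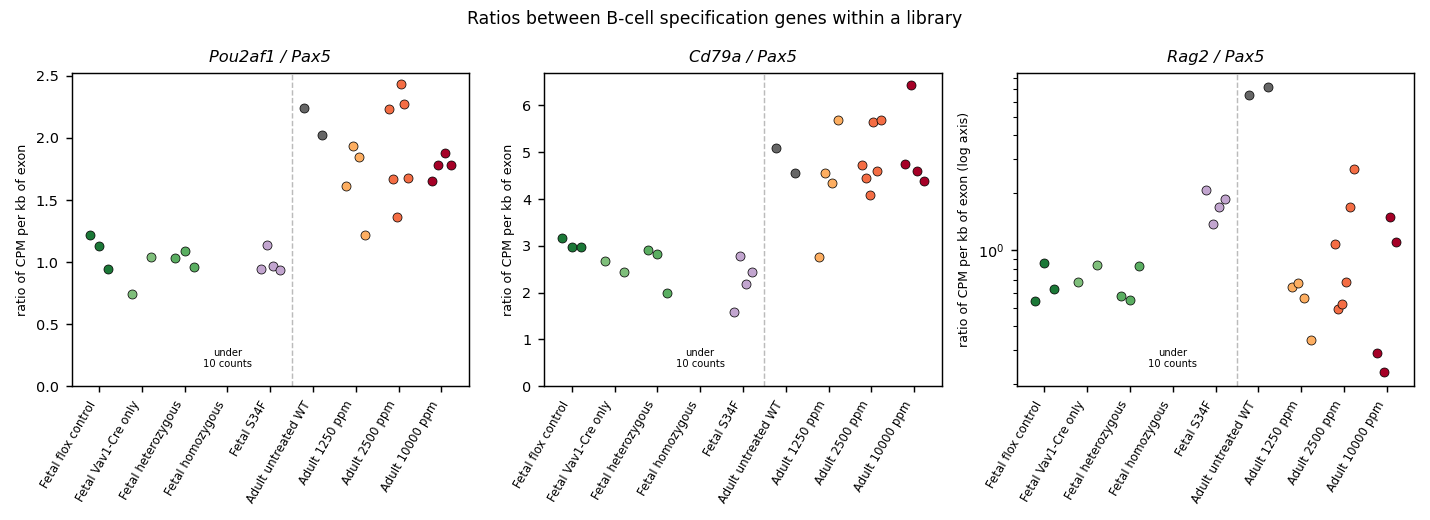
Ratio of CPM per kilobase of exon between 2 genes within each library with at least 10 counts of both genes, by group. The ratio of Pou2af1 to Pax5 lies at 0.745 to 1.22 in the 12 fetal libraries and at 1.22 to 2.44 in the 16 adult ones, and the homozygous deletion has too few counts for a point.

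Ratios between genes, taken per kilobase of exon, show how the set was composed in each library. The Pou2af1 to Pax5 ratio was 0.745 to 1.22 (median 1.0) in 12 fetal libraries and 1.22 to 2.44 (median 1.81) in 16 adult libraries. The Cd79a to Pax5 ratio was 1.58 to 3.18 fetal and 2.77 to 6.45 adult. S34F libraries had a Pou2af1 to Pax5 ratio of 0.937 to 1.14, inside the range of the other fetal libraries, although both genes were lower there. The Rag2 to Pax5 ratio was 1.37 to 2.06 with S34F and 0.544 to 0.858 in the other 8 fetal libraries, which did not overlap. It was 6.51 and 7.11 in the 2 untreated adult libraries with enough counts, above all 14 rescue libraries at 0.231 to 2.67.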

How the data were processed

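Libraries of total RNA depleted of ribosomal RNA were sequenced in pairs of 150-base reads, per the labels' protocols. The authors mapped reads with HISAT2 2.1.0 to GRCm38, per the labels' design text, and deposited raw whole-number counts per Ensembl gene. The counter, annotation release, use of strand and gene filter were not given in the sources used here, and the labels warn of batch effects among fetal samples. Symbols and coordinates came from GENCODE M21 (27668 of 27728 IDs matched), and promoters from RefSeq GRCm38.p6.

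Groups followed the labels' genotype, treatment and stage. Genes were kept by filterByExpr, scaled by TMM and tested with edgeR 4.0.16 (R 4.3.3) in 1 model of the 9 batch A libraries of flox control and deletions, 1 of the 17 adult libraries, 1 of the 14 rescue libraries for dose, and 1 of all 32 for fetal against adult. SE is the log2 fold change divided by the square root of F. Log2 CPM used a prior count of 2. The S34F group had 1 control library in its batch, so folds of genes with a mean of at least 10 counts were counted instead. Counts have no molecular identifiers, so intervals cover counting error only. Some of the fits were run on simulated counts, with the same spread setting for every gene and large planted changes. That check does not show how the tests behave for genes that vary as much as Pax5 did at 10000 ppm. The 9 genes and all lists were chosen with earlier results of these data known. Apart from the 9 genes, at most 4 called genes per list and comparison were named, by smallest p, and others (such as the Dntt or Lef1 levels) after their values were seen. A gene of the lists is not reported here and was left out of their counts. The 10 genes of closest pattern followed the rule stated beside them. Alternatives were DESeq2 1.42.0, RLE factors, no low-count filter, only the compared groups, a replicate block, batch as a term over all fetal libraries, the rank of the dose, the batch A control for S34F, and leaving out each replicate. Leaving out S34F replicates, and list calls without 10000 ppm replicate 2, were added after seeing the data.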

Additional observations from a re-analysis of the deposited data

How the results depend on the processing

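The number of the 5 genes called was most fragile in the adult comparisons, whose adjusted p lay close to 0.05. With only the compared groups in the fit it was 0 in place of 3 at 10000 ppm and 0 in place of 4 at 2500 ppm, while it stayed 4 at 1250 ppm. DESeq2 called 4 at 10000 ppm. Leaving out 1 replicate gave 0 to 3 at 10000 ppm, 0 to 4 at 2500 ppm, 0 to 3 at 1250 ppm, 0 to 1 for the heterozygous deletion, 0 to 0 for the dose slope and 5 to 5 for fetal against adult. The median log2 fold change of the homozygous deletion ran from -4.60 to -3.62 against the flox control and from -4.48 to -3.76 against the heterozygous deletion. The S34F median log2 ratio was -1.98, -2.04 to -1.90 without 1 replicate, and -1.06 with the batch A control. Why these values moved was not tested, beyond the fewer libraries in each such fit. No direction of a called gene was reversed. Counts of calls over all genes also moved, from 169 to between 0 and 1057 at 10000 ppm, from 65 to between 0 and 569 at 2500 ppm, from 1524 to between 68 and 3165 at 1250 ppm, from 4 to between 0 and 269 for the heterozygous deletion, and from 1376 to between 33 and 2240 for the dose slope. Equal replicate numbers gave no clear sign of pairing between the flox control and heterozygous libraries. Their deviations correlated at -0.022, -0.10 and 0.050, and not every library matched its own number best. For 2500 ppm and untreated the shared numbers all matched best, at 0.155, 0.064 and 0.110, which is a hint from the data and not the design. For 10000 and 2500 ppm the deviations correlated at 0.254, 0.267, -0.212 and 0.437, and 3 of 4 matched best. Whether fetal or adult libraries were paired cannot be told from these values. With the replicate number as a block, 3, 4 and 3 of the 5 genes were called at 10000, 2500 and 1250 ppm, 0 for the heterozygous deletion, 0 for dose and 5 for fetal against adult, and the medians of the homozygous deletion were -4.74 and -4.69. Depth limits Pax5 and Pou2af1 in the homozygous deletion, with 6 counts and 1 count in all.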
